A study of Mus musculus with 6 samples.

Results

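The Runx genes Runx1, Runx2 and Runx3 and their shared partner gene Cbfb were examined in primary cultures of renal tubule epithelial cells (RTECs). The 4 genes were taken by name from the 46517 genes of the count files, and as a family they were chosen by their measured difference between TGF-β1–treated and control cultures, which was already known. Their values in that comparison are therefore given as a description, without p-values. Cells had been grown from kidneys of wild type FvB mice, aged 4 to 6 weeks in the sample labels, in medium with 10% serum and 20 ng/ml EGF. All 6 cultures then spent 24 h without serum. The 3 CTL cultures stayed untreated, whereas TGF-β1 at 50 ng/ml was given to the other 3 over 24 h. The paper describes the mice as male, but Y-linked transcripts, given below, were near 0 in replicates 1 and 3. The labels do not say whether replicates came from separate mice, and p-values below measure only the spread between these cultures.

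Runx proteins are the DNA-binding subunits of core-binding factor. Their Runt domain recognizes a short DNA word read as TGTGGT or TGCGGT. Cbfb encodes the other subunit, which does not touch DNA but tightens the binding of each Runx protein and protects it from breakdown. Runx1 is best known from blood stem cells, Runx2 from osteoblasts and hypertrophic cartilage, and Runx3 from T cells and sensory neurons. Runx proteins also form complexes with Smads, the transcription factors that carry TGF-β signals into the nucleus, and the epithelium of the kidney tubule is among the tissues that respond to TGF-β1. Each Runx gene has a distal and a proximal promoter, and counts per gene, as here, cannot tell which of them was used.

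All 4 members had entries among the RefSeq promoter windows of build GRCm38.p6, which run from 250 bases before to 50 bases after a transcript start. Runx1 and Runx3 had 2 windows each, and Runx2 and Cbfb had 1. The distal windows of the 3 Runx genes shared a run of 18 bases, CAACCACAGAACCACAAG, in which the Runx word stands 2 times, read as its reverse complement ACCACA. The shared run was looked for after the windows had been seen. The 30 bases that hold it are given with their flanks, to compare the family, at chr16:92826025-92826054 (minus strand) for Runx1, chr17:44814583-44814612 (minus strand) for Runx2 and chr4:135120503-135120532 (plus strand) for Runx3. Capitals mark Runx words on either strand.
Runx1: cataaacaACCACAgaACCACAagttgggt
Runx2: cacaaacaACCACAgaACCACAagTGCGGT
Runx3: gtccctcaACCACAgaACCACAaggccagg
The run began 26 bases after the transcript start in Runx1, 21 bases after it in Runx2 and 136 bases before it in Runx3. It was found in 4 of 32851 promoter windows, and the other window belonged to Gm16225, whose window overlaps that of Runx3. At least 2 Runx words, TGTGGT or TGCGGT on either strand, were found in 2.86% of all windows. The Runx2 window held 4 Runx words, the distal windows of Runx1 and Runx3 held 2 each, and the proximal windows of Runx1 and Runx3 and the window of Cbfb held 0. A match is a description of the letters and not a measured binding site.

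The 250 bases before each transcript start are given for Runx1 and Runx2, the Runx genes with the larger counts. Capitals mark every searched word. Besides the Runx words, both strands were searched for CAGACA, a word of Smad proteins, and for their palindrome GTCTAGAC. The search also took in TGANTCA (bound by AP-1), the TATAAA box, the CCAAT box and the E-box CACCTG. Matches in the members' windows did not overlap each other.
Runx1 distal, chr16:92826075-92826324, minus strand: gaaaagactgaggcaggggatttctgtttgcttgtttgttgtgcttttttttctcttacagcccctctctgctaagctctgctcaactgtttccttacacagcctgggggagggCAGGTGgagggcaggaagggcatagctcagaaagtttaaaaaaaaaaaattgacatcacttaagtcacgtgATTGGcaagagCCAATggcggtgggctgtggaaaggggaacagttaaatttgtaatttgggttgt
Runx1 proximal, chr16:92697330-92697579, minus strand: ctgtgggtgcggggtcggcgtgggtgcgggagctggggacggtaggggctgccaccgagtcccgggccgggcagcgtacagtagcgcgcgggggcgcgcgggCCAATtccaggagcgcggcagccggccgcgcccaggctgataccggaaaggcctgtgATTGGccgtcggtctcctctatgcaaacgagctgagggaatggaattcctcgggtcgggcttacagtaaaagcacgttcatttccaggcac
Runx2, chr17:44814628-44814877, minus strand: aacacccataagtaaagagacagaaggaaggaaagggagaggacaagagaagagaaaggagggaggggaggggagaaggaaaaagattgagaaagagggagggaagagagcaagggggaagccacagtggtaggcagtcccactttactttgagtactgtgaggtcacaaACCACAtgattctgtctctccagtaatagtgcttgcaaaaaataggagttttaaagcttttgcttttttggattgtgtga
The proximal Runx1 sequence is rich in G and C, at 67.6%, against 45.6% in the distal Runx1 sequence and 44.8% in that of Runx2. Both Runx1 sequences held CCAAT 2 times, once on each strand, a word present in 37.4% of all windows. The SMAD palindrome, present in 0.213% of all windows, was absent from these 3 sequences and from the Cbfb window, and it stood once in the proximal window of Runx3, at position -175 from the start. CAGACA, at 21.0% of all windows, stood once in the Cbfb window and once in the proximal Runx3 window.

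Library totals on genes ranged from 28313080 to 34183497 reads. Replicate 2 stood apart from replicates 1 and 3 in both groups, with 136 and 154 CPM (reads per 1e6 reads on genes) of 4 summed Y-linked transcripts against at most 0.177 in the other cultures. Xist, a transcript of female cells, was at 198.4 and 242.5 CPM in replicate 2 and at 509.5 to 651.9 CPM in the others. Replicate 2 of each group thus held transcripts of both male and female cells, so it drew on more than 1 mouse. It did not come from the same set of mice as replicates 1 and 3. Same-numbered CTL and TGF-β1 cultures deviated together. Of the 9 pan-tubule markers, Cdh16 and Pax8 fell with TGF-β1, by log2 fold changes of -1.51 and -0.77 (adjusted p = 0.00922 and 0.00436, edgeR), and Cdh16 went from 238 to 311 CPM in CTL to 66.9 to 105 CPM. Among 8 proximal tubule markers, 4 had enough counts, and 2 of these, Lrp2 and Aqp1, also fell, by -0.93 and -2.91 (adjusted p = 0.0165 and 0.00919, edgeR). Neither Cubn, at a log2 fold change of 0.09, nor Hnf4a, at -1.53, was called, as edgeR gave them adjusted p of 0.698 and 0.0591. Slc34a1, Slc5a2, Slc22a6 and Slc27a2 were not tested and had at most 10 reads in any library. Krt8, Krt18, Krt19, Epcam and Cdh1 were lowest in replicate 2 of each group, with Epcam at 64.6 CPM there and 180 and 295 CPM in the other CTL cultures. Leukocyte markers were near 0, with a summed level of 7.42 to 11.8 CPM in CTL and 5.30 to 10.96 CPM in TGF-β1 cultures. Ptprc, the pan-leukocyte marker CD45, was at most at 1.16 CPM, and Csf1r alone of the 10 leukocyte markers passed the test, in the lower direction. The 8 fibroblast and mesenchymal markers summed to 1289 to 2499 CPM in CTL and 1461 to 2692 CPM in TGF-β1 cultures. Among them, Pdgfrb and Col1a1 had log2 fold changes of -0.91 and 0.36 that did not pass (adjusted p = 0.34 and 0.737, edgeR). Pdgfrb, Dcn, Col1a1 and Col3a1 were highest in replicate 2 of each group, whereas Postn and Pdgfra were lowest there, with Postn at 338 CPM in CTL replicate 2 and 698 and 467 CPM in CTL replicates 1 and 3. The part of these differences in the members' values was not tested, and in bulk cultures fewer cells of a type and less RNA per cell cannot be told apart.

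Runx1 was the most abundant Runx gene and showed the largest difference of the family. Its TMM-normalized counts (scaled for library size and composition) were 4901, 4339 and 4797 in CTL replicates 1, 2 and 3, and 12543, 10759 and 11769 in TGF-β1 replicates 1, 2 and 3. The lowest TGF-β1 culture was far above the highest CTL culture. The CTL mean was 4679 ± 299 and the TGF-β1 mean 11690 ± 894 (SD, n = 3 each), a log2 fold change of 1.32 with a standard error of 0.08, or 2.50-fold. The same-numbered pairs gave nearly the same ratio, with log2 values of 1.36, 1.31 and 1.29 in pairs 1, 2 and 3. Of the 15862 tested genes, 180 had a larger log2 fold change than Runx1. Runx1 (ENSMUSG00000022952.15) is annotated on the minus strand of chromosome 16, from 92601466 to 92826149 (build GRCm38).

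Runx2 was expressed at a lower level and was also higher with TGF-β1. Its normalized counts were 702, 797 and 702 in CTL replicates 1, 2 and 3, and 1152, 1397 and 1113 in TGF-β1 replicates 1, 2 and 3. The groups did not overlap, and replicate 2 was the highest culture in both. Means were 734 ± 54.8 (SD, n = 3) and 1221 ± 154 (SD, n = 3), for a log2 fold change of 0.73 with a standard error of 0.11, or 1.66-fold. Log2 ratios within pairs 1, 2 and 3 were 0.71, 0.81 and 0.67. Runx2 (ENSMUSG00000039153.15) lies on chromosome 17 from 44495987 to 44814797 on the minus strand.

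Cbfb, the common partner, differed least between the groups. Its normalized counts were 2848, 2489 and 2888 in CTL replicates 1, 2 and 3, and 3263, 3341 and 3346 in TGF-β1 replicates 1, 2 and 3. Every TGF-β1 culture was above every CTL culture, and CTL replicate 2 was lower than the other CTL cultures. Means were 2742 ± 220 (SD, n = 3) and 3317 ± 46.2 (SD, n = 3), a log2 fold change of 0.28 with a standard error of 0.07, or 1.21-fold. The pair with the low CTL culture gave a log2 ratio of 0.42, and pairs 1 and 3 gave 0.20 and 0.21. Cbfb (ENSMUSG00000031885.12) lies on chromosome 8 from 105170674 to 105217989 on the plus strand.

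Runx3 was close to undetected. Its raw counts were 0, 4 and 1 in CTL replicates 1, 2 and 3, and 7, 0 and 3 in TGF-β1 replicates 1, 2 and 3. Both groups held a library at 0, and the groups overlapped. The largest value, 7 reads, corresponds to 0.219 CPM, and the floor of 3 counts used here corresponds to 0.0878 to 0.106 CPM. Runx3 did not have enough counts for the test, so no fold change is given and a difference was not detectable at this depth. Runx3 (ENSMUSG00000070691.9) lies on chromosome 4 from 135120652 to 135177990 on the plus strand.

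**Figure D1:**
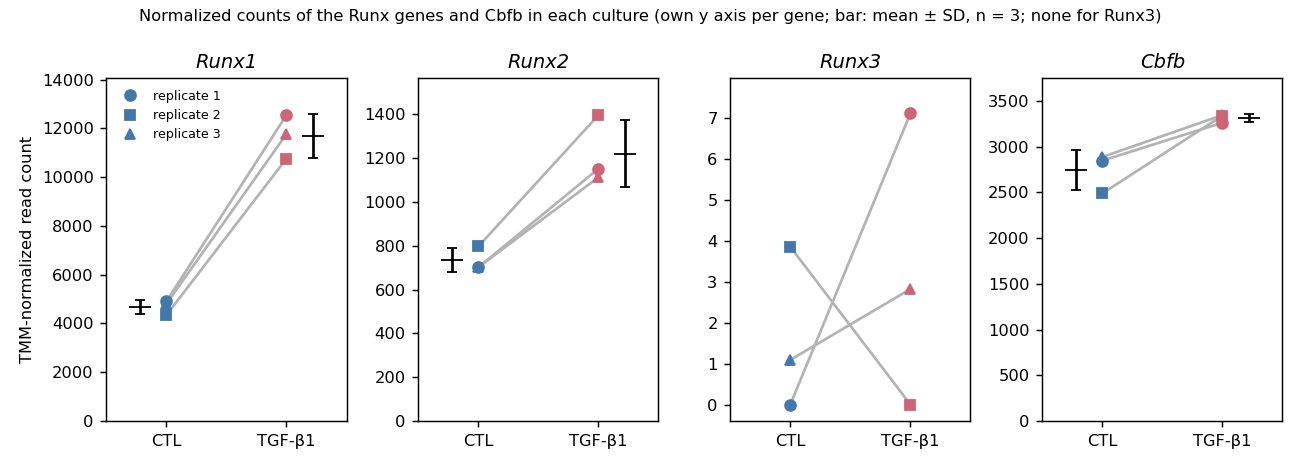
TMM-normalized read count (y axis, separate for each gene) of Runx1, Runx2, Runx3 and Cbfb in CTL and TGF-β1 cultures, with symbols for replicates 1, 2 and 3, grey lines joining same-numbered cultures, and bars for mean ± SD (n = 3). All 3 TGF-β1 cultures lie above all 3 CTL cultures for Runx1, Runx2 and Cbfb, and the Runx3 values, at 0 to 7.11, cross.

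In the fit across all genes (edgeR, adjusted p under 0.05), Runx1, Runx2 and Cbfb, the 3 members with enough counts, passed in the higher direction, with and without the replicate number as a block. Of all tested genes, 5% passed as higher and 6.69% as lower, 11.7% in all. Scaled by library size only, 508 genes passed as higher and 1467 as lower, in place of 793 and 1061. With the block, 15.1% passed as higher and 19.1% as lower, 34.2% in all. Normalized counts of the groups did not overlap, in the higher direction, for 17.2% of tested genes, and in the lower direction for 18%. Because the family was proposed with this comparison known, nothing is read from the members' share. The call of Cbfb was lost when any 1 of the 6 cultures was left out. Its log2 fold change stayed above 0 in all these fits, at 0.21 without CTL replicate 2 and 0.31 without CTL replicate 3. The call of Runx2 was lost when CTL replicate 1 (log2 fold change 0.70) or TGF-β1 replicate 1 (0.78) was left out, and that of Runx1 was kept in all 6 of these fits. Without both replicate 2 cultures, which stood apart, all 3 members passed, with log2 fold changes of 1.33 for Runx1, 0.69 for Runx2 and 0.205 for Cbfb. Without both replicate 1 cultures none of the 3 passed (1.30, 0.74 and 0.31), as for every tested gene, and without both replicate 3 cultures Runx1 alone passed (1.33, 0.77 and 0.31).

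Levels of different genes can be compared only after division by transcript length. Per kb of the union of annotated exons, CTL cultures had 25.5 ± 2.1 CPM per kb of Cbfb, 12.6 ± 0.8 of Runx1, 2.69 ± 0.19 of Runx2 and 0.011 ± 0.013 of Runx3 (SD, n = 3 each). The ranges of neighbours in this order did not overlap in CTL. In TGF-β1 cultures Runx1 reached 29.9 ± 2.6 CPM per kb, with a range of 27.1 to 32.2 that spans the Cbfb range of 28.9 to 30.0, so these 2 genes did not differ beyond their spread. Runx2 followed at 4.25 ± 0.47 and Runx3 at 0.020 ± 0.022 CPM per kb (SD, n = 3 each). Among 15803 tested genes with a length, the mean level of Cbfb over the 6 libraries was above 87.7%, that of Runx1 above 83.6% and that of Runx2 above 42.3%.

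The place of Runx1 beside Cbfb depends on the length used. The exons of Runx1 cover 12025 bp over 7 annotated transcripts, but its longest transcript has 5861 bp. For Cbfb these lengths are 3480 and 2891 bp, and for Runx2 8837 and 6463 bp. Per kb of the longest transcript, Runx1 was at 25.9 ± 1.7 and Cbfb at 30.7 ± 2.5 CPM per kb in CTL (SD, n = 3 each), still without overlap. In TGF-β1 cultures Runx1 was then at 61.4 ± 5.3, above Cbfb at 35.3 ± 0.7 in each library. Runx2 and Runx3 kept the lower places with both lengths.

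**Figure D2:**
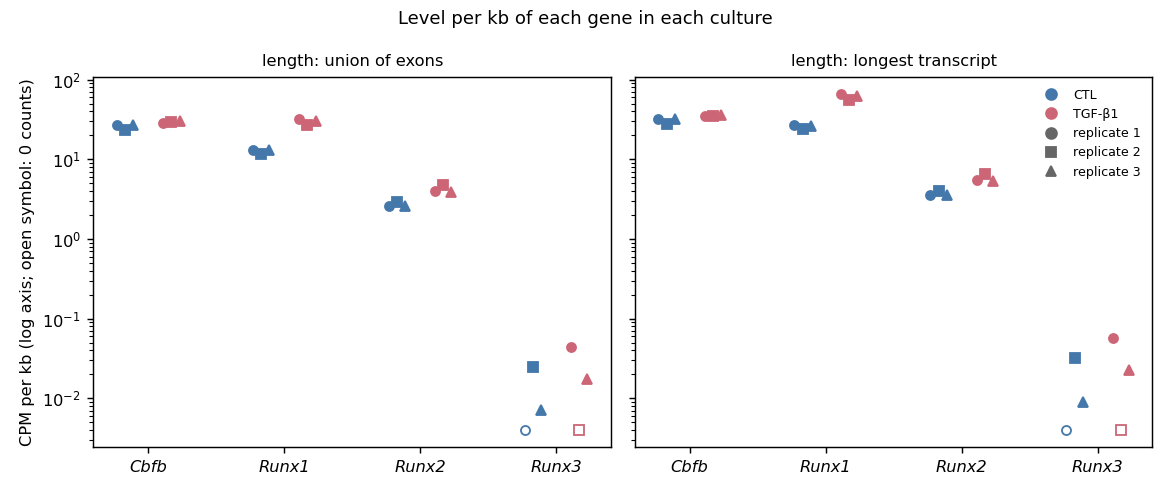
CPM per kb (log y axis) of Cbfb, Runx1, Runx2 and Runx3 in each culture, divided by the union of exons (left) or the longest transcript (right), with colours for CTL and TGF-β1, symbols for replicate number and open symbols for 0 counts. Cbfb and Runx1 lie highest, Runx2 follows, and Runx3 stays under 0.06 CPM per kb.

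The make-up of the family within each library is given next, as a description of the same cultures. Runx1 supplied 82.3% ± 2.1 of the summed Runx level per kb of union exon in CTL and 87.4% ± 2.1 in TGF-β1 cultures (SD, n = 3 each). The ratio of Runx1 to Runx2 was 5.13, 4.00 and 5.02 in CTL replicates 1, 2 and 3, and 8.0, 5.66 and 7.77 in TGF-β1 replicates 1, 2 and 3. The ratio was lowest in replicate 2 of each group, where Runx1 was lowest and Runx2 highest. The summed Runx level relative to Cbfb was 0.595, 0.632 and 0.577 in CTL and 1.25, 1.10 and 1.15 in TGF-β1 cultures, without overlap. With the longest transcripts the Runx1 to Cbfb ratio alone was 0.843 in CTL and 1.74 in TGF-β1 cultures, in place of 0.494 and 1.02 with the union of exons.

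**Figure D3:**
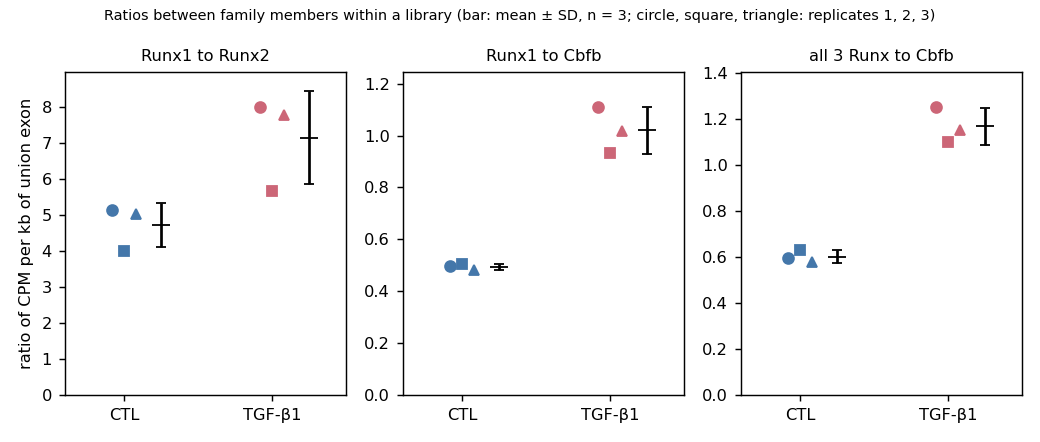
Ratios of CPM per kb of union exon within each library, from left to right Runx1 to Runx2, Runx1 to Cbfb and the sum of the Runx genes to Cbfb, with circles, squares and triangles for replicates 1, 2 and 3 and bars for mean ± SD (n = 3). Each ratio is higher in all TGF-β1 cultures than in all CTL cultures, and the summed Runx level per Cbfb moves from 0.601 to 1.17 on average.

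Transcripts annotated inside the members' gene bodies were examined because the counts could mix reads of overlapping genes. Supt3, a subunit gene of a transcriptional coactivator complex, overlaps Runx2 on the opposite strand without sharing exon bases. It had 320 ± 15.5 normalized counts in CTL and 322 ± 33.3 in TGF-β1 cultures (SD, n = 3 each), a log2 fold change of 0.01 with a standard error of 0.10 (adjusted p = 0.974, edgeR). The antisense transcripts Gm26626 at Runx1 and Runx2os1 at Runx2 share exon bases with them, and had 0 to 10 and 7 to 13 raw reads per library. Those values are small beside 4399 to 12536 raw reads of Runx1 and 644 to 1349 of Runx2. The strand setting of the counting is not given in the sources used here, so reads of a gene and of its antisense partner cannot be told apart.

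Genes whose pattern over the 6 libraries was most like that of a member were found by the Pearson correlation of log2 normalized values, over 10910 tested genes with a mean of at least 5 CPM. The correlation ignores the size of a change, all points share the CTL and TGF-β1 groups, and the values are a description. Most like Runx1 were Accs (r = 0.999), Pla2g16, Whrn, Ddi2 and Hdac9 (r = 0.997). Hdac9, a class IIa histone deacetylase, had 856, 737 and 844 normalized counts in CTL and 3038, 2805 and 2758 in TGF-β1 replicates 1, 2 and 3. Most like Runx2 were Nfatc1, Kbtbd2, Tnfrsf11b, Mocs2 and Srp9, with r from 0.998 to 1.00. Nfatc1, a calcium-regulated transcription factor, had 899, 997 and 877 normalized counts in CTL and 1399, 1683 and 1354 in TGF-β1 replicates 1, 2 and 3, and like Runx2 was highest in replicate 2 of each group. Most like Cbfb were Papolg, Gtf2e2, Peli1, Pak1 and Ireb2, with r from 0.991 to 0.998, and these shared its low value in CTL replicate 2. Between members, r was 0.909 for Runx1 and Runx2, 0.916 for Runx1 and Cbfb and 0.787 for Runx2 and Cbfb. By likeness to Runx1, Cbfb ranked 682 and Runx2 754 among 10910 genes. By likeness to Runx2, Runx1 ranked 925 and Cbfb 2029, and by likeness to Cbfb, Runx1 ranked 478 and Runx2 1568. The genes named above are the top 5 of each ranking, so a lower r between members is no result about the family.

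**Figure D4:**
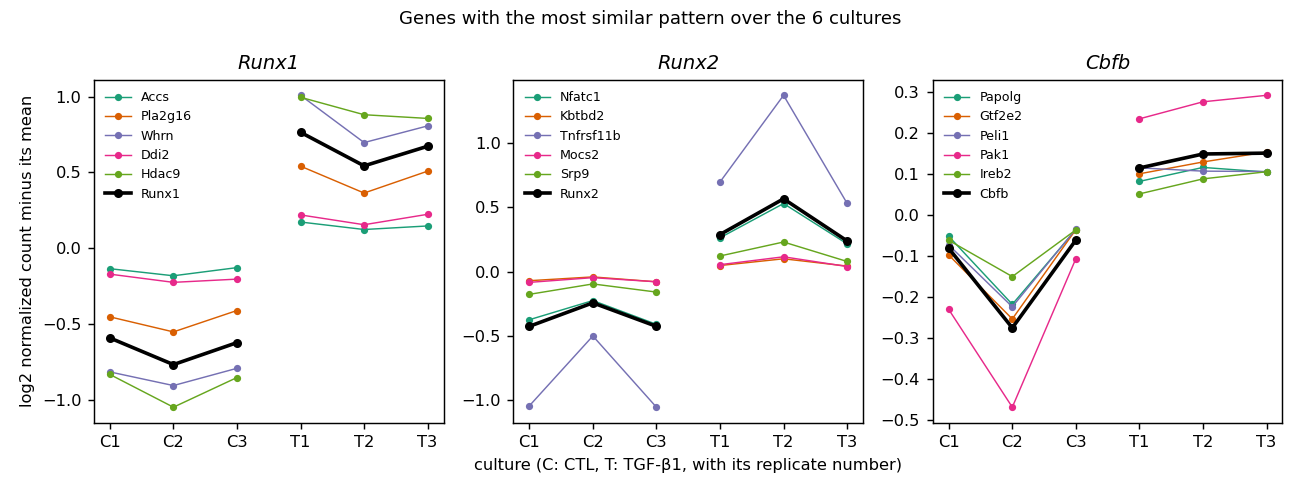
Log2 normalized count minus its mean over the 6 cultures (y axis) for Runx1, Runx2 and Cbfb (black) and the 5 genes most like each, in CTL (C1 to C3) and TGF-β1 (T1 to T3) cultures; lines only join values of 1 gene within a group. Runx1 is lowest and Runx2 highest in replicate 2 of each group, and Cbfb is lowest in CTL replicate 2.

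The genes around core-binding factor were described from 5 lists. In the list of cofactors, corepressors, Smads and ubiquitin ligases that act on Runx proteins, 38 of 40 genes were tested. Of these, 3 passed as higher and 2 as lower (edgeR), beside 5% and 6.69% of all tested genes. With the replicate block 8 and 7 passed, beside 15.1% and 19.1% of all tested genes. When CTL replicate 1 or TGF-β1 replicate 1 was left out 0 passed, and of all tested genes 1.83% and 1.98% passed in these fits. With all cultures, 7 had an unadjusted p under 0.05 as higher and 6 as lower, beside 13.2% and 15.4% of all tested genes. DESeq2 called 4 and 5, beside 7.57% and 9.59% of all genes. The median log2 fold change was 0.06, beside -0.003 for all tested genes. Smurf2, a ubiquitin ligase for Runx and Smad proteins, rose from 4607 ± 76 to 5597 ± 64.9 normalized counts (SD, n = 3 each, log2 fold change 0.28, adjusted p = 0.012, edgeR). Wwp1, another ubiquitin ligase known to act on Runx2, fell from 2755 ± 285 to 2008 ± 41.5 (log2 fold change -0.46, adjusted p = 0.0208, edgeR). Smad5 (log2 fold change 0.22) and the Notch target Hes1 (0.22) rose, and Kat6b, a histone acetyltransferase, fell (-0.32), with adjusted p of 0.0287, 0.0458 and 0.0463 (edgeR). Hey1, another Notch target in this list, had a log2 fold change of -0.38 that did not pass (adjusted p = 0.29, edgeR). Smad2 and Smad3, the Smads that carry TGF-β1 signals, had log2 fold changes of -0.35 and -0.46 that passed with the block alone (adjusted p = 0.217 and 0.0698 without and 0.00603 and 0.00017 with it, edgeR). Among the abundant genes that did not pass, Nedd4 had a log2 fold change of 0.09 and Wwtr1 0.09.

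Of 23 bone and cartilage targets of Runx2, 13 had enough counts. Of these 13, 2 passed as higher and 1 as lower (edgeR), beside 5% and 6.69% of all tested genes. With the replicate block 6 and 6 passed, beside 15.1% and 19.1% of all tested genes. Without CTL replicate 1, or without TGF-β1 replicate 1, 1 target passed in all, beside 1.83% and 1.98% of all tested genes. The median log2 fold change of the 13 targets was 0.12. Tnfrsf11b, which encodes the decoy receptor osteoprotegerin, had 288, 420 and 286 normalized counts in CTL and 964, 1539 and 859 in TGF-β1 replicates 1, 2 and 3 (log2 fold change 1.76, adjusted p = 0.0161, edgeR). Its place among the genes most like Runx2 comes from the same libraries and is not independent of this fold change. Vegfa rose (0.75, adjusted p = 0.0237) and the growth factor receptor gene Fgfr2 fell (-1.06, adjusted p = 0.00399, edgeR). Spp1, which encodes osteopontin, had a log2 fold change of -1.27 that passed with the block alone (adjusted p = 0.0835 without and 0.000343 with it, edgeR). Alpl, Mmp13, Fgfr3 and Col10a1 also passed as lower with the block alone. Sparc, Mmp9, Col1a1 and Col1a2 passed as higher in the same way, at log2 fold changes of 0.48, 1.17, 0.36 and 0.83. Of 7 osteoblast and chondrocyte markers, the defining osteoblast genes Sp7, Bglap and Ibsp had at most 1, 2 and 0 reads in any library. Dmp1 and Acan had at most 2. The collagen genes Col2a1 and Col10a1 had up to 72 and 259 reads. Col2a1 passed as higher (log2 fold change 0.66, adjusted p = 0.0476, edgeR). The log2 fold change of Col10a1, -1.35, passed with the block alone (adjusted p = 0.237 without and 0.000789 with it, edgeR).

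Of 22 blood-lineage targets, 10 had enough counts. Of these 10, 0 passed as higher and 1 as lower (edgeR), beside 5% and 6.69% of all tested genes. With an unadjusted p under 0.05 the counts were 1 and 1 (2092 and 2437 of all 15862 tested genes). DESeq2 called 1 and 1, beside 7.57% and 9.59% of all genes. The replicate block gave 3 and 2, beside 15.1% and 19.1%. The call was lost without CTL replicate 1, CTL replicate 3 or TGF-β1 replicate 3. The gene that fell was Csf1r, the receptor of macrophage colony-stimulating factor, with 129 ± 14.7 normalized counts in CTL and 51.4 ± 16.2 in TGF-β1 cultures (SD, n = 3 each, adjusted p = 0.0238, edgeR). The median log2 fold change was 0.03. All 20 growth, survival and junction targets were tested. Of them 3 passed as higher and 3 as lower (edgeR), beside 5% and 6.69% of all tested genes. With the block 6 and 9 passed, beside 15.1% and 19.1% of all tested genes. The median log2 fold change of the 20 targets was -0.23. In the fits lacking CTL replicate 1 or TGF-β1 replicate 1, where 295 and 321 of all genes passed, 0 of these targets did. With all cultures 4 higher and 4 lower targets had an unadjusted p under 0.05, beside 13.2% and 15.4% of all tested genes. DESeq2 called 4 and 4, beside 7.57% and 9.59% of all genes. Bcl2l11, which encodes the death protein Bim, rose from 2057 ± 266 to 3934 ± 497 normalized counts (SD, n = 3 each, adjusted p = 0.0117, edgeR). Itga5 and Cdkn2a rose by log2 fold changes of 1.29 and 0.42 (adjusted p = 0.0429 and 0.0441, edgeR). Ccnd1, Socs3 and Cdk6 had log2 fold changes of -1.02, -0.89 and -0.37 (adjusted p = 0.0166, 0.0184 and 0.0441, edgeR). Cdkn1a, an inhibitor of the cell cycle, had a log2 fold change of 0.44 that passed with the block alone (adjusted p = 0.0966 without and 0.00141 with it, edgeR). Pik3cd, which encodes a catalytic subunit of PI 3-kinase, had 65.3 ± 15.0 and 58.2 ± 16.5 normalized counts (SD, n = 3 each, adjusted p = 0.728, edgeR) and was chosen for naming after its values were seen.

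A list of 12 common TGF-β readouts was chosen with earlier results of these data known, so it is no independent check of the treatment. Of the 12 readouts, 7 passed as higher and 0 as lower (edgeR), with 7 and 0 at an unadjusted p under 0.05 and with DESeq2. With the replicate block 9 and 2 passed. Of all tested genes, 5% and 6.69% passed, and 15.1% and 19.1% with the block. An unadjusted p under 0.05 was found for 13.2% and 15.4% of them, and DESeq2 called 7.57% and 9.59% of all genes. Without CTL replicate 1, or without TGF-β1 replicate 1, 3 readouts passed, beside 1.83% and 1.98% of all tested genes. Fn1, which encodes fibronectin, rose by a log2 fold change of 1.04 (adjusted p = 0.00379, edgeR), with a standard error of 0.09. Snai1, Pmepa1, Skil and Smad7 rose by 0.98, 0.87, 0.76 and 0.55. Ccn2 and Col4a1, at 0.18 and -0.44, did not pass without the block, and did with it.

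**Figure D5:**
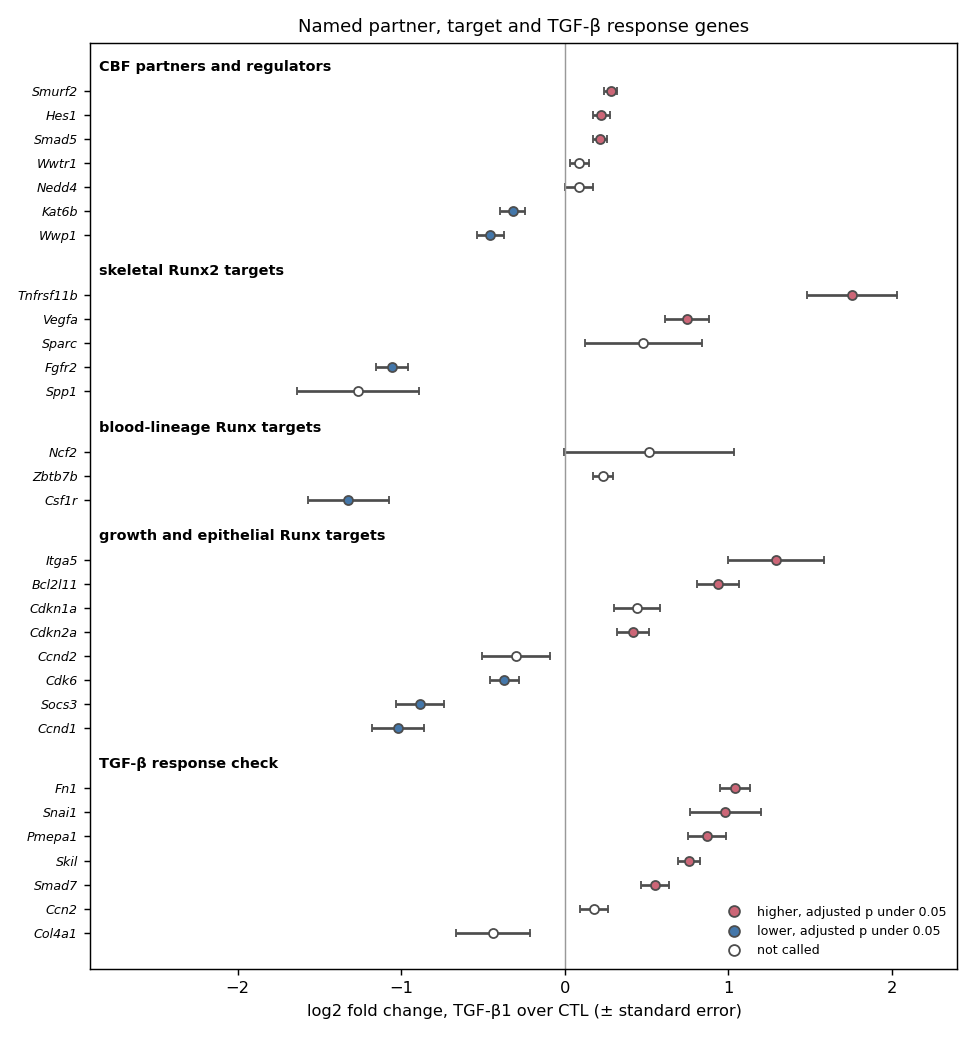
Log2 fold change of TGF-β1 over CTL with its standard error (x axis, positive is higher with TGF-β1) for the named genes of the 5 lists; filled symbols passed an adjusted p under 0.05 (edgeR) as higher or lower, and open symbols did not pass. Called genes lie on both sides of 0 in the partner, skeletal and growth lists, and the 5 called readouts of TGF-β shown lie above it.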

How the data were processed

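The authors trimmed single-end reads of poly(A) RNA with Trim Galore, aligned them to GRCm38 with STAR 2.4.1d and counted them on genes with HTSeq 0.6.1. The deposited values are raw read counts per gene, 1 table for each of 3 CTL and 3 TGF-β1 cultures. Rows that name no gene, among them reads aligned to more than 1 place or overlapping more than 1 gene, were left out of library sizes. They held 25.4% to 25.9% of the reads. The annotation release and strand setting are not given in the sources used here. Reads carried no molecular identifiers, so floors cover counting error only.

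Symbols, coordinates and lengths came from GENCODE M21 (GRCm38), which matched 46005 of 46517 identifiers without version numbers. Counts were fitted in R 4.3.3 with edgeR 4.0.16 (filterByExpr, TMM, glmQLFit with robust estimation, glmQLFTest, two-sided, Benjamini-Hochberg over 15862 genes, threshold 0.05). Standard errors come from the F statistic. The study compared groups without pairing, so the replicate number was not in the model. It was run as a block because same-numbered cultures, numbered in the labels, deviated together (r = 0.308, 0.663 and 0.546 for numbers 1, 2 and 3, against -0.593 to 0.198 between numbers). Other alternatives were DESeq2 1.42.0, limma-voom (limma 3.58.1), RLE or library-size scaling, 2 other filters, down-sampling, a threshold of 0.01 and leaving out cultures.

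On simulated counts with 200 of 15862 genes changed by 1 on the log2 scale, 3 against 3, edgeR recovered 61.5% with 6.11% false calls. The block fit on the same counts recovered 53.5%, and 10.8% of its calls were false. The simulated counts were drawn without any replicate effect, so they cannot tell how the block fit does on cultures that deviate together. DESeq2 recovered 72%, and 29.1% of its calls were false.

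The members and lists were chosen with earlier results of these data known. Named from each list were up to 6 called genes with the largest absolute log2 fold change at a mean of at least 1 CPM, and the 2 most abundant genes that were not called. Members, overlapping transcripts with at least 10 reads in all and the 5 genes most like each member were also named. Other genes, apart from Pik3cd and Hey1, are named only where a count or marker check needed them, or where the block alone gave the call. These genes, Pik3cd and Hey1 were chosen after their values were seen. Prmt1 of the partner list was not analysed here, and some genes that the rule names are not reported here. Figures used matplotlib 3.10.9.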

Additional observations from a re-analysis of the deposited data

How the results depend on the processing

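The cause of each change was not tested. Across the 8 alternatives that kept all cultures, the log2 fold change of Runx1 ran from 1.25 to 1.33 and that of Runx2 from 0.66 to 0.74, and each passed in all 8. That of Cbfb ran from 0.20 to 0.28 and passed in 7, the exception being scaling by library size only (0.20). Across 9 fits on fewer cultures, 6 lacking 1 culture and 3 lacking a same-numbered pair, Runx1 ran from 1.27 to 1.37, Runx2 from 0.62 to 0.80 and Cbfb from 0.205 to 0.314. In these 9 fits, which had no replicate block, Runx1 passed in 8, Runx2 in 5 and Cbfb in 1, the fit without both replicate 2 cultures. The exception for Runx1 was the fit without both replicate 1 cultures, in which 0 of all genes passed and 1938 had an unadjusted p under 0.05. Runx3 had too few counts for a value in the fit used here.

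Over all tested genes, 793 passed as higher and 1061 as lower. The replicate block called 2388 and 3037, a threshold of 0.01 gave 127 and 192, DESeq2 1201 and 1521, and library size only 508 and 1467. The fits that left out cultures gave 0 to 1084 higher and 0 to 1290 lower genes. Against 5 partner genes called, the replicate block gave 15, DESeq2 9 and the 0.01 threshold 0. Against 3 skeletal targets these gave 12, 5 and 1, and against 1 blood-lineage target 5, 2 and 0. Against 6 growth targets the replicate block gave 15 and the 0.01 threshold 0, and against 7 TGF-β readouts 11 and 3. Fits that left out cultures called 0 to 7 partner genes, 0 to 6 skeletal, 0 to 1 blood-lineage and 0 to 10 growth targets, and 0 to 7 readouts. Without both replicate 2 cultures 7 partner, 6 skeletal, 1 blood-lineage and 10 growth genes and 7 readouts were called. That fit called 1084 genes as higher and 1290 as lower over the whole table. Without both replicate 1 cultures each list had 0, and 6, 5, 1, 4 and 7 genes, in that order, had an unadjusted p under 0.05. The replicate block changed no member's call.

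Without division by length, the Runx1 to Cbfb ratio was 1.71 in CTL and 3.53 in TGF-β1 cultures, and the Runx1 to Runx2 ratio 6.42 and 9.72. With the longest transcript, these were 0.843 and 1.74, and 7.08 and 10.7.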
